A study of Mus musculus with 2 samples.

Results

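The genes described here are 10 leukocyte adhesion molecules of the endothelium, chosen by symbol from the 32285 genes counted in each library: Icam1, Icam2, Vcam1, Sele, Selp, Pecam1, F11r, Jam2, Jam3 and Ackr1. All 10 had UMIs (unique molecular identifiers, 1 for each captured transcript molecule) in endothelial cells of both libraries, and all 10 reached the minimum of 20 UMIs used for a ratio there. The study profiled single cells of whole aorta, arch to distal bifurcation, from male C57BL6 mice with 10x Genomics 3' v3 chemistry. The Cept1 overexpression library came from Cept1fl/fl Cre+ mice, in which tamoxifen induces the VE-cadherin-Cre-ERT2 transgene and with it overexpression of Cept1 in endothelial cells. The control library came from Cept1fl/fl Cre- mice, so both groups carried the floxed Cept1 alleles. Per the labels' protocols, male littermates received 5 daily intraperitoneal injections of 1 mg tamoxifen from at least 8 weeks of age and recovered for 5 days, although the age label reads 6 to 8 weeks. The VE-cadherin promoter drives the Cre in endothelium, which limits the model to cells that used that promoter at the time of the injections. The labels give 3 mice per condition and each condition is 1 library; whether cells of the 3 mice were pooled in it is not stated. There is therefore no replicate of either group, no test and no p-value, and every interval below covers counting error only, not the spread between mice.

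Leukocytes leave the blood in steps, and each gene family serves one of them. P-selectin (Selp) and E-selectin (Sele) bind fucosylated ligands such as PSGL-1 on leukocytes and let them tether and roll, while ACKR1 (Ackr1), an atypical chemokine receptor typical of venules, carries chemokines across the endothelium and holds them on its surface. The immunoglobulin family members ICAM-1 (Icam1), ICAM-2 (Icam2) and VCAM-1 (Vcam1) bind leukocyte integrins, LFA-1 and Mac-1 for the ICAMs and VLA-4 for VCAM-1, and arrest the rolling cell. PECAM-1 (Pecam1) and the junctional adhesion molecules JAM-A (F11r), JAM-B (Jam2) and JAM-C (Jam3) sit at endothelial junctions and guide passage between cells. Sele, Vcam1 and Icam1 are classical targets of NF-κB downstream of TNF and interleukin-1.

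In GENCODE's annotation of GRCm38 the members lie on 5 chromosomes. Sele (bases 164048234 to 164057677), Selp (164115264 to 164150026), F11r (171437535 to 171464603) and Ackr1 (173331886 to 173333750) are on chromosome 1, and Vcam1 (116109949 to 116129688) is on chromosome 3. Icam1 (21015985 to 21028817) and Jam3 (27097384 to 27155421) are on chromosome 9, Icam2 (106377656 to 106388075) and Pecam1 (106654217 to 106750628) on chromosome 11 and Jam2 (84774123 to 84825928) on chromosome 16. Promoter sequences of 3 members are shown, of the genes with the most marked cell-to-cell or class-to-class differences below: Sele and Selp, neighbours 57586 bases apart on the same strand, and Icam1. Each run is the 250 bases before the RefSeq transcription start on build GRCm38.p6, written 5′ to 3′ on the gene's strand. Capitals mark matches to GGNNNTTCC, a simplified NF-κB-type pattern searched on both strands, and to TATAA, searched on both strands.
Sele, chr1:164047984-164048233, plus strand: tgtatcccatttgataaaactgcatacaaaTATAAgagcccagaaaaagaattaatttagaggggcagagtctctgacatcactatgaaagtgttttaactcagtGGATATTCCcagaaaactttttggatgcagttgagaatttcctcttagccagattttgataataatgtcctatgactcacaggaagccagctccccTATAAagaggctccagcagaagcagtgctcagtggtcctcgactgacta
Selp, chr1:164115014-164115263, plus strand: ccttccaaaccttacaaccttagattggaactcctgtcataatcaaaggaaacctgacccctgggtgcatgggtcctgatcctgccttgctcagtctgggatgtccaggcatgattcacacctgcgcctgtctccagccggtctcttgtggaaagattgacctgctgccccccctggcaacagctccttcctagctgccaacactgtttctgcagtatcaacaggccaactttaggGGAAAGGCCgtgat
Icam1, chr9:21015690-21015939, plus strand: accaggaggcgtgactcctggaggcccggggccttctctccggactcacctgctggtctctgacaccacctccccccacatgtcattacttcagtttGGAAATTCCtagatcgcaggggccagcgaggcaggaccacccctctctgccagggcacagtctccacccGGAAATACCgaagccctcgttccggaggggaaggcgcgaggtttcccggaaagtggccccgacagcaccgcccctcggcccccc
Icam1 held 2 stretches matching GGNNNTTCC, and Sele and Selp held 1 each. Sele also held 2 matches to TATAA, the nearer of them starting 49 bases before the start site. TGANTCA, an AP-1-type pattern left in lower case, occurred once in Sele and once in Selp. Of 27025 RefSeq promoters of the same length, 15.6% held GGNNNTTCC, 23.5% TATAA and 6.87% TGANTCA, so a match is a description of the letters and no evidence that a factor binds there. Promoters of 5 of the 10 members were matched in that RefSeq table: Icam1, Sele, Selp, F11r and Ackr1.

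The deposited matrices held 17728 barcodes with 95735360 UMIs in the Cept1 overexpression library and 14349 barcodes with 88220524 UMIs in the control library. Filtering and doublet removal left 10635 and 8546 cells, whose median totals were 6301 and 6685 UMIs. Cells were assigned to a class from fixed marker genes, none of them a member. This gave 1200 Cept1 overexpression and 592 control blood endothelial cells, split into arterial (740 and 263), capillary (295 and 196), venous (99 and 92) and untyped (66 and 41) cells. A further 217 and 103 cells were lymphatic endothelium. The names stand for arterial-like, capillary-like and venous-like cells. All 8 endothelial markers had UMIs in all 4 subtypes of both libraries. The libraries shared 74 barcodes, 29 of them kept in both. The control library held 843 mixed barcodes, with markers of 2 classes, against 488 in the Cept1 overexpression library, and 187 of them, against 36, paired endothelial with fibroblast markers. These were left out of every class.

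Cept1, the targeted gene, encodes the choline/ethanolamine phosphotransferase of the endoplasmic reticulum that makes phosphatidylcholine and phosphatidylethanolamine. Levels are given throughout in CPM, the UMIs of the gene divided by all UMIs of the class and scaled to a common total. Cept1 stood at 120 CPM in arterial cells of the Cept1 overexpression library and 72.6 in the control library, a 1.66-fold difference. In capillary cells it was 171 against 88.4 CPM, 1.93-fold. In venous cells it was 86.4 against 90.2 CPM, a log2 ratio of -0.06 (95% interval -0.53 to 0.40). In lymphatic cells it was 86.3 against 69.2 CPM (0.32, -0.05 to 0.71). Among cells outside endothelium, monocytes also had more Cept1, 92.9 against 50.9 CPM, a 1.82-fold difference. T cells had 81.5 against 60.3 CPM (0.43, 0.15 to 0.72). Smooth muscle (0.32, 0.09 to 0.55), fibroblasts (0.14, 0.03 to 0.25) and macrophages (0.14, 0.02 to 0.26) had intervals above 0 too. B cells, mast cells, mesothelial cells and platelets had ratios below 0, with intervals that include 0. Cdh5, which encodes VE-cadherin and lends the Cre its promoter, was detected at 629 and 527 CPM in arterial, 1696 and 1478 in capillary and 833 and 624 in venous cells, Cept1 overexpression library first in each pair. In the same order, venous cells held the 6 lymphatic marker genes at a sum of 1427 and 1497 CPM, none of them at 0. That sum was 57.5 and 33.4 CPM in arterial and 115 and 66.3 in capillary cells. Lymphatic cells held the 6 venous marker genes at 2689 and 2253 CPM, against 6582 and 6256 in venous cells. The source of this overlap, and its part in the venous values of the members, was not tested.

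**Figure D1:**
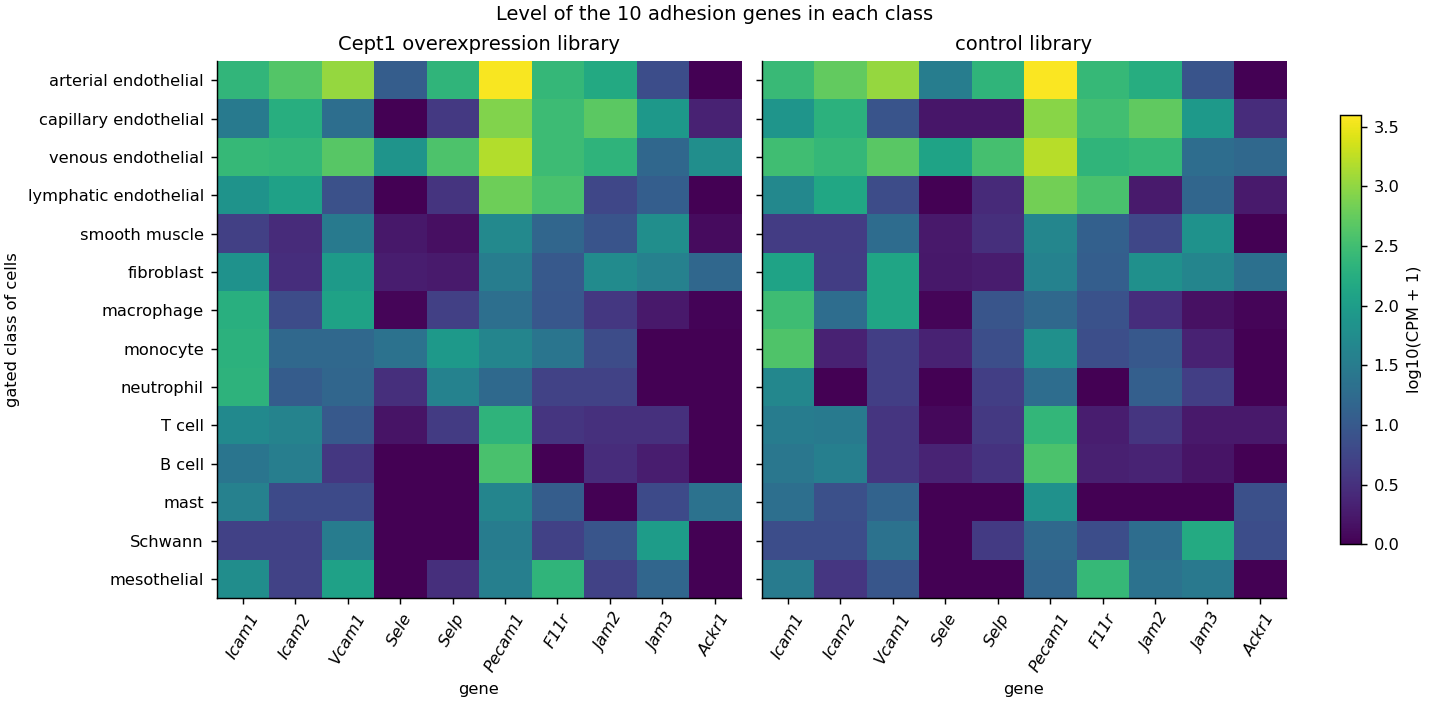
Level of the 10 genes (columns) in 14 gated classes of cells (rows), as log10 of CPM plus 1, with the Cept1 overexpression library on the left and the control library on the right. Pecam1 is brightest in arterial endothelium of both libraries (3655 and 3758 CPM).

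Summed over all blood endothelial cells, none of the 10 members was at least 1.5-fold higher in the Cept1 overexpression library, where 4.68% of the 13215 genes counted were, and 2 were at least 1.5-fold lower, Sele and Jam3, where 8.72% of all genes were. The median log2 ratio of the members was -0.05, against -0.03 over all genes counted. The sum mixes subtypes in unequal parts: arterial cells made up 61.7% of the blood endothelial cells of the Cept1 overexpression library (95% exact binomial interval 58.8 to 64.4) and 44.4% of those of the control library (40.4 to 48.5). Capillary cells made up 24.6% and 33.1%, and venous cells 8.25% and 15.5%. The members differ in level between subtypes, so pooled and within-subtype values are given side by side. Vcam1 was 869 CPM in the pooled Cept1 overexpression cells and 652 in the pooled control cells (log2 ratio 0.42), yet in arterial cells alone it was 1089 and 1058 (0.04). Jam3, lower in the pooled sum (20.5 against 34.1 CPM, -0.74), was 82.4 and 87.1 CPM in capillary cells, its main site in blood endothelium (-0.08, 95% interval -0.43 to 0.27). In untyped cells Jam3 had 5 UMIs or 9.06 CPM in the Cept1 overexpression library and 34 UMIs or 58.8 CPM in the control library (-2.70, -4.41 to -1.34). The pooled Jam3 ratio was -0.58 (-0.88 to -0.28) without the untyped cells, just short of 1.5-fold, and -0.13 with arterial, capillary and venous cells weighted equally. The pooled ratio of Jam2 was -0.44, against -0.12 in capillary, -0.21 in arterial and -0.22 in venous cells. In untyped cells Jam2 was 194 and 398 CPM (-1.04), where 1 control cell held 82 of 230 UMIs, and the pooled ratio was -0.38 without untyped cells and -0.16 with the 3 named subtypes weighted equally. Within subtypes, in arterial cells 0 of the 9 members counted were at least 1.5-fold higher and 1, Sele, was lower, against 5.58% and 6.32% of 11906 genes, with a median log2 ratio of -0.21, against -0.01 over all genes. In capillary cells 1 of 7, Vcam1, was higher and 1, Icam1, was lower, against 7.68% and 8.27% of 9941 genes (medians -0.14 and 0.01). In venous cells 1 of 10, Ackr1, was higher and 1, Sele, was lower, against 9.20% and 8.56% of 8787 genes (medians -0.07 and 0.03). In lymphatic cells 0 of the 6 counted passed in either direction, against 8.84% and 8.22% of 10107 genes (medians -0.04 and -0.00).

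**Figure D2:**
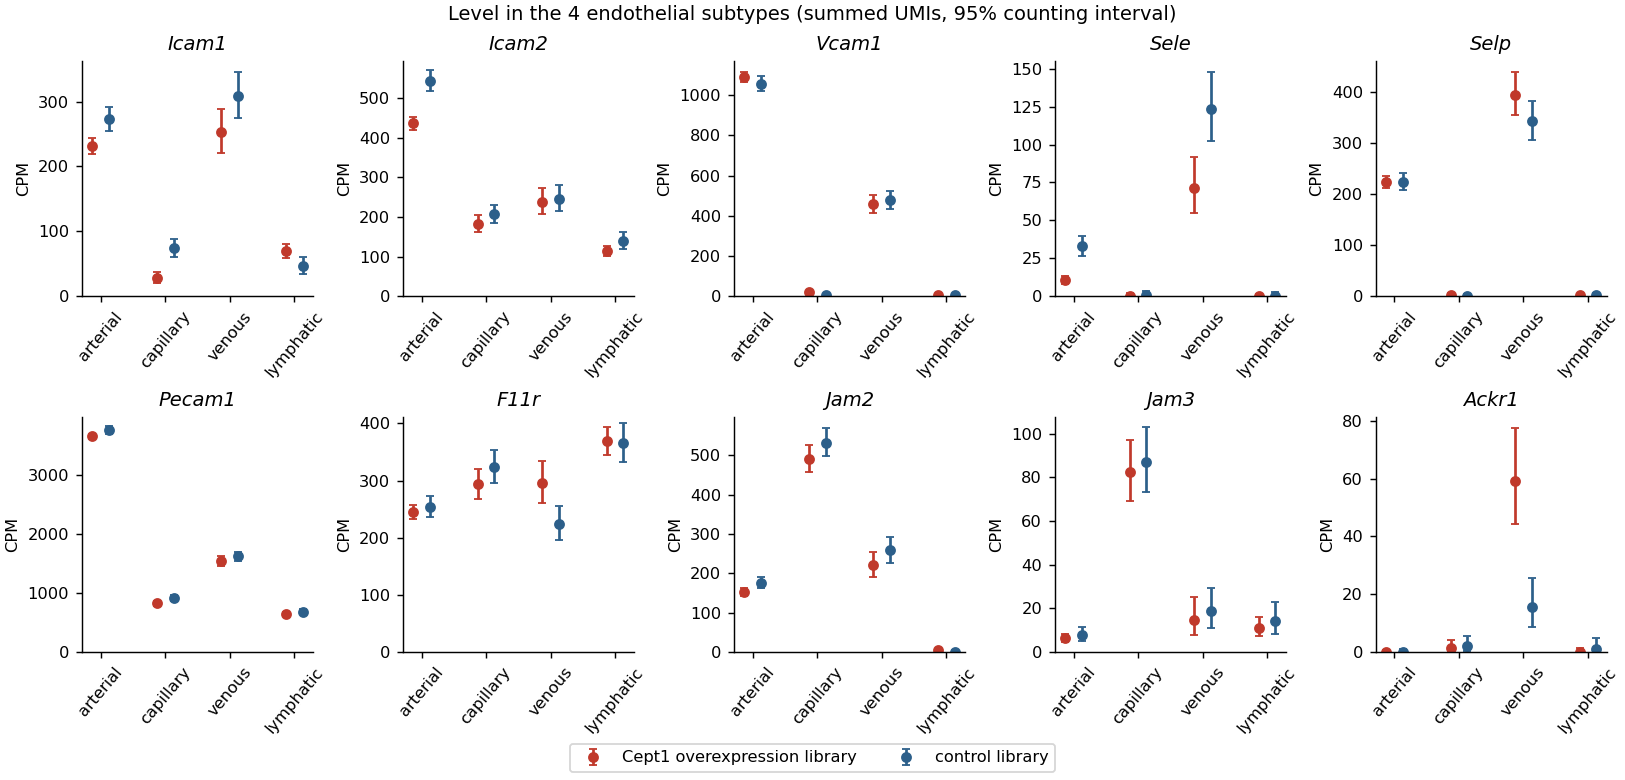
Level in CPM of each gene in 4 endothelial subtypes, Cept1 overexpression library left of the control library in each pair; points are class sums from 1 library and bars 95% exact Poisson intervals. Ackr1 in venous cells (59.1 and 15.6 CPM), Sele in arterial cells (10.5 and 32.8) and Icam1 in capillary cells (28.4 and 73.9) have intervals that do not overlap.

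P-selectin is stored in Weibel-Palade bodies of endothelium and in platelet granules, and reaches the surface within minutes of stimulation. Selp was highest in venous cells, 396 CPM in the Cept1 overexpression library and 343 in the control library, followed by untyped endothelial cells with 254 and 258 and arterial cells with 224 and 224, whose intervals overlap. In capillary cells it had 5 UMIs in the Cept1 overexpression library and 1 in the control library, and in lymphatic cells 6 and 2. The log2 ratio was -0.00 in arterial cells (95% interval -0.13 to 0.13) and 0.21 in venous cells (-0.02 to 0.43). The 3 richest venous cells held 71, 42 and 30 of 348 UMIs in the Cept1 overexpression library (41.1%) and 87, 83 and 61 of 331 in the control library (69.8%). The venous ratio moved with the cells included, to 0.32 (0.06 to 0.57) without the top cell of each library, 1.17 (0.82 to 1.53) without the top 3, 0.48 (0.25 to 0.72) without barcodes that both libraries hold and -0.14 under a looser cell filter. The arterial ratio was 0.15 without the top cell, which held 24 of 1452 UMIs in the Cept1 overexpression library and 82 of 703 in the control library, and 0.22 (0.08 to 0.36) without the top 3. Selp UMIs were found in 64.3% of arterial cells of the Cept1 overexpression library and 67.3% of those of the control library, and in 0.44% and 1.04% of smooth muscle cells, a type not known for the gene, whose cells were deeper (medians of 10499 and 15272 UMIs, against 7486 and 9677 in arterial cells). In venous cells the shares were 50.5% and 33.7%, and after thinning every cell to 2000 UMIs 27.6% and 20.5% of 98 and 88 cells, with intervals that overlap.

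E-selectin is not held in such stores and is made anew when endothelium is activated. Sele was the member with the lowest ratio in arterial cells, 68 UMIs or 10.5 CPM in the Cept1 overexpression library and 103 UMIs or 32.8 CPM in the control library (log2 ratio -1.65, 95% interval -2.11 to -1.19). In venous cells it was 71.6 against 123 CPM (-0.78, -1.25 to -0.33). Capillary cells held 0 UMIs in the Cept1 overexpression library, which allows up to 1.78 CPM, and 1 UMI in the control library, and lymphatic cells held none in either. The number of cells with the transcript did not differ in the same way. Sele UMIs were found in 38 of 740 arterial cells of the Cept1 overexpression library (5.14%) and 13 of 263 of the control library (4.94%), and after thinning to 2000 UMIs in 1.69% and 1.63%. In venous cells they were found in 13 of 99 cells (13.1%) and 8 of 92 (8.70%). In smooth muscle, a type not known for Sele, the shares were 0.44% and 1.04%.

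What differed was how many transcripts a few cells held. In the Cept1 overexpression library the 5 arterial cells richest in Sele held 11, 4, 3, 3 and 3 UMIs, and in the control library 50, 25, 9, 5 and 3. These counts are not scaled for depth. The control cells had totals of 26584, 27219, 42486, 37653 and 44681 UMIs. The Cept1 overexpression cells had 28297, 17345, 11948, 8039 and 23250. One control cell thus supplied 48.5% of the arterial Sele UMIs and 3 cells 81.6%. Venous cells showed the same shape, with 25, 7, 5, 5 and 5 UMIs in the Cept1 overexpression library against 59, 27, 19, 6 and 3 in the control library. With the top cell of each library left out, the arterial ratio was -0.94, and with the top 3 left out it turned to 0.35 (95% interval -0.44 to 1.19). The venous ratio turned to 1.03 (0.04 to 2.08) without the top 3 cells. These are 3 of 740 and 99 cells in one library and 3 of 263 and 92 in the other, so the trimming is heavier in the control library. The venous control cell with 59 UMIs also bears a barcode that occurs in the Cept1 overexpression library, where the barcode belongs to a macrophage with 0 Sele UMIs. Without shared barcodes the venous ratio was 0.19 (-0.35 to 0.72). The direction of the Sele difference therefore rested on very few control cells.

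**Figure D3:**
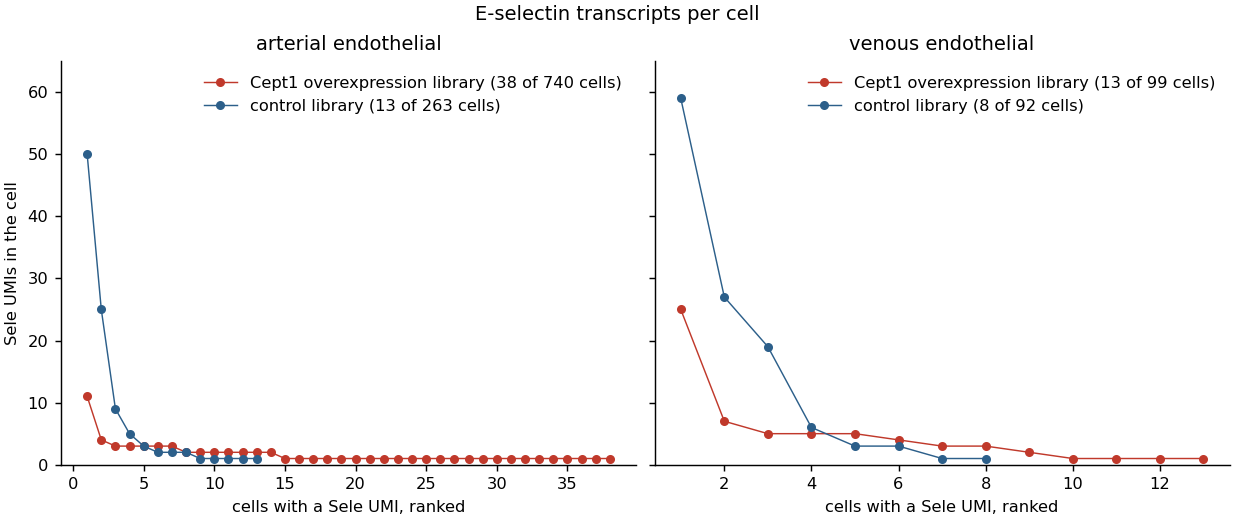
Sele UMIs (vertical axis) in every arterial (left) and venous (right) endothelial cell with at least 1, ranked from most to least, for the Cept1 overexpression and control libraries. The control curves start at 50 and 59 UMIs and fall within 3 to 5 cells to the level of the Cept1 overexpression library, whose curves start at 11 and 25 and run through more cells. The UMIs are not scaled for the depth of each cell.

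The cells with Sele carried other members as well. The richest arterial control cell, with 26584 UMIs in all, held 368 Vcam1, 81 Icam1 and 16 Selp UMIs beside its 50 Sele UMIs, and the richest venous control cell held 63 Vcam1, 61 Selp and 25 Icam1 UMIs in a total of 10397. Among arterial cells of the Cept1 overexpression library, Vcam1 stood at 1479 CPM in the 38 cells with a Sele UMI and 1058 in the 702 without, and Icam1 at 291 and 227. In control arterial cells Vcam1 stood at 2338 CPM in the 13 cells with a Sele UMI and 868 in the 250 without, and Icam1 at 416 and 252. Selp in venous cells stood at 1821 CPM in the 13 Cept1 overexpression cells with a Sele UMI and 161 in the 86 without, and at 3218 and 53.6 in the 8 and 84 control cells. Pecam1 did not follow this split in arterial cells, with 3162 and 3694 CPM in the Cept1 overexpression library and 3695 and 3768 in the control library. Cells with a Sele UMI were deeper (medians of 10652 against 7361 UMIs in arterial cells of the Cept1 overexpression library and 32151 against 9280 in the control library), and the part of depth in the split was not tested.

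Ackr1 had 52 of its 54 blood endothelial UMIs in venous cells in the Cept1 overexpression library and 15 of 28 in the control library, and its venous ratio was the largest in size among members counted in arterial, capillary or venous cells. It had 52 UMIs or 59.1 CPM in venous cells of the Cept1 overexpression library and 15 UMIs or 15.6 CPM in the control library (log2 ratio 1.93, 95% interval 1.08 to 2.86). The UMIs lay in 16 of 99 and 8 of 92 venous cells, and the 3 richest cells held 10, 10 and 8 UMIs in the Cept1 overexpression library and 4, 3 and 2 in the control library. The ratio was 2.07 without the top cell and 2.13 without the top 3. Arterial cells held 0 Ackr1 UMIs in both libraries, which allows up to 0.46 and 0.96 CPM. The pooled blood endothelial ratio was 0.33 (-0.35 to 1.04); 10 of the 28 control UMIs lay in 1 untyped cell, and venous cells were a smaller part of the Cept1 overexpression library. Fibroblasts held Ackr1 too, at 14.7 CPM in the Cept1 overexpression library and 20.3 in the control library (-0.47). The gene overlaps Cadm3 on the same strand. Cadm3 stood at 48.6 and 71.0 CPM in fibroblasts and at 10.2 and 15.6 in venous cells (9 and 15 UMIs). In venous control cells both genes thus had 15 UMIs. Part of the Ackr1 signal in fibroblasts and in venous cells cannot be told apart from Cadm3, a limit that also holds for the venous ratio.

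**Figure D4:**
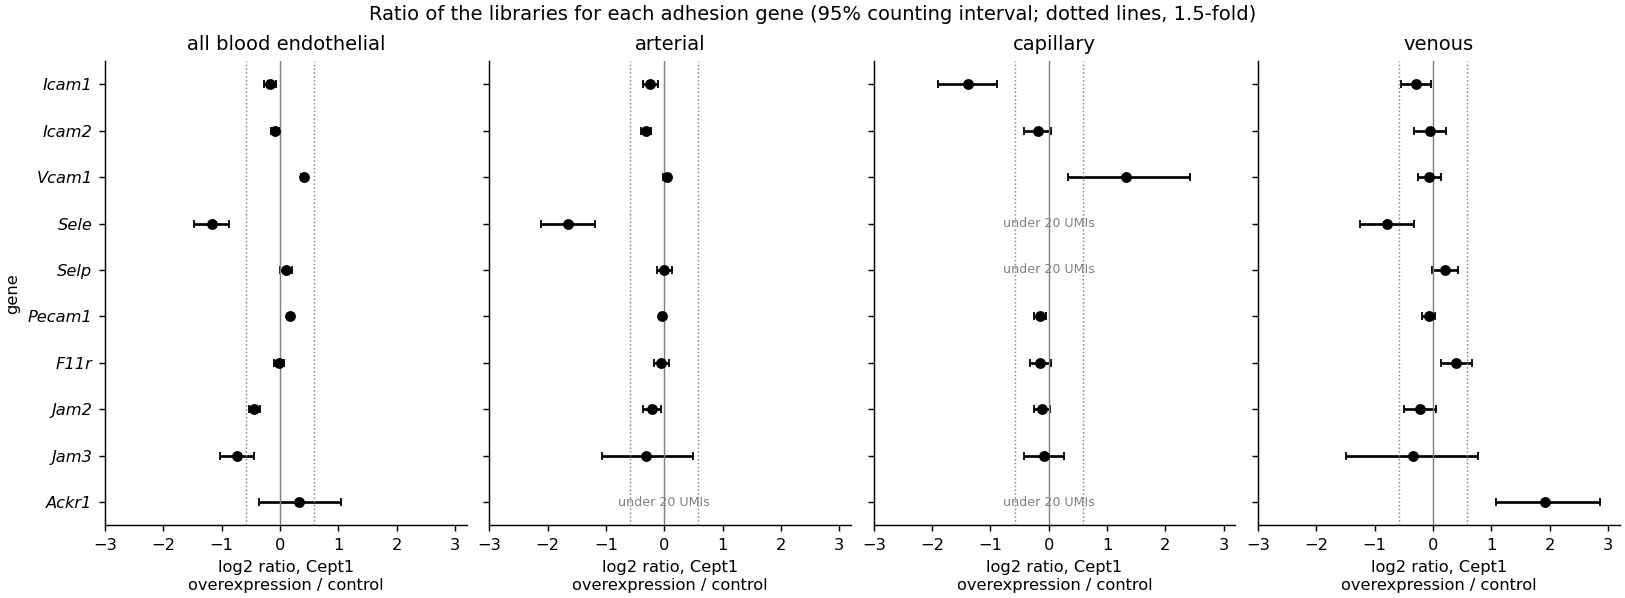
Log2 ratio of the Cept1 overexpression library over the control library for each gene in all blood endothelial cells and in 3 subtypes; bars are 95% exact counting intervals, dotted lines 1.5-fold in either direction, and genes with under 20 UMIs are marked. Sele lies left of the line in the pooled, arterial and venous panels, Icam1 in the capillary panel, and Ackr1 lies right of it in the venous panel (1.93).

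Vcam1, the ligand of VLA-4, was chiefly an arterial and venous gene. It was at 1089 CPM in arterial cells of the Cept1 overexpression library and 1058 in the control library, with UMIs in 91.8% and 91.3% of cells. In venous cells it was at 458 and 478 CPM, and neither subtype differed by 1.5-fold (log2 ratios 0.04 and -0.06). Capillary cells held 32 UMIs in the Cept1 overexpression library and 12 in the control library, 19.0 and 7.58 CPM (1.32, 95% interval 0.33 to 2.42), and these lay in 14 of 295 and 7 of 196 cells. Weighted equally over cells, that capillary ratio was 0.41. One arterial control cell held 368 of the 3323 control UMIs, and without the top cell of each library the arterial ratio was 0.19. In untyped endothelial cells Vcam1 was 1539 against 500 CPM (1.62), where 274 of 849 UMIs came from 1 cell of the Cept1 overexpression library.

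Icam1, the ligand of LFA-1 and Mac-1, was at 231 CPM in arterial cells of the Cept1 overexpression library and 273 in the control library (log2 ratio -0.24, 95% interval -0.36 to -0.12), and at 254 and 309 in venous cells (-0.29, -0.54 to -0.03). Without the top 3 cells of each library the arterial ratio was -0.02. The largest difference in blood endothelium was in capillary cells, 48 UMIs or 28.4 CPM against 117 UMIs or 73.9 CPM (-1.38, -1.89 to -0.88). The UMIs lay in 9.49% of capillary cells of the Cept1 overexpression library and 21.4% of those of the control library, and after thinning to 2000 UMIs in 3.53% and 9.34%. In smooth muscle, which held little Icam1 (3.82 and 3.33 CPM), the unthinned shares were 3.53% and 2.76%. The capillary ratio was -1.36 without the top cell and -1.24 without the top 3, and each interval stayed below 0. Capillary median depth was 4554 UMIs in the Cept1 overexpression library and 6092 in the control library. The 6 adipocyte marker genes summed to 376 CPM in capillary cells of the Cept1 overexpression library and 186 in the control library, none of them at 0, and without the cells that held such UMIs (25.8% and 29.1%) the ratio was -1.09. In lymphatic cells Icam1 stood at 69.2 and 46.4 CPM (0.58, 0.13 to 1.04). The richest lymphatic cell held 21 of 170 UMIs in the Cept1 overexpression library and 25 of 55 in the control library, and without it the ratio was 1.26 (0.69 to 1.88), past 1.5-fold.

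Icam2, which is made constitutively by endothelium, was highest in arterial cells, 437 CPM in the Cept1 overexpression library and 544 in the control library (log2 ratio -0.32, 95% interval -0.40 to -0.23). Untyped endothelial cells held 386 and 310, venous cells 238 and 247, capillary cells 183 and 208 and lymphatic cells 114 and 140. In arterial, venous, capillary and lymphatic cells the 4 ratios were below 0, from -0.32 to -0.05, and none passed 1.5-fold. Pecam1 followed the same order of subtypes: 3655 and 3758 CPM in arterial, 1537 and 1619 in venous, 827 and 916 in capillary and 644 and 684 in lymphatic cells. Its log2 ratios in these subtypes lay between -0.15 and -0.04. Pecam1 also marked T cells (216 and 241) and B cells (369 and 377), which are known to carry the protein. Icam2 and Pecam1 lie 266141 bases apart on chromosome 11, both on the minus strand.

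The junctional adhesion molecules divided by vessel type. F11r was highest in lymphatic cells, with 369 and 365 CPM, Cept1 overexpression library first. It had 293 and 324 in capillary, 296 and 224 in venous and 245 and 254 in arterial cells. In both libraries the lymphatic interval lay above those of arterial and venous cells. It overlapped that of capillary cells in the control library only. Among these endothelial subtypes only the venous F11r value differed between libraries beyond counting error (log2 ratio 0.40, 95% interval 0.13 to 0.67), by less than 1.5-fold. Of all 10 classes counted for F11r, 1 was at least 1.5-fold higher with an interval above 0, and 0 were lower. This was monocytes, with 20 and 5 UMIs (23.8 and 6.21 CPM). Mesothelial cells, an epithelium, also held F11r (224 and 260 CPM, in 26 and 18 cells). Jam2 was a capillary gene, 491 CPM in the Cept1 overexpression library and 532 in the control library. Venous cells held 222 and 258, untyped endothelial cells 194 and 398 and arterial cells 152 and 176, with 12 UMIs and 1 UMI in lymphatic cells. Jam3 in endothelium was also highest in capillary cells (82.4 and 87.1 CPM), but Schwann cells (95.3 and 159) and smooth muscle (59.8 and 68.0) held it as well. The counting intervals of Schwann and capillary cells overlapped in the Cept1 overexpression library and not in the control library.

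Outside endothelium, Icam1 was lower in the Cept1 overexpression library in fibroblasts, macrophages and monocytes. In fibroblasts 0 of 10 members were at least 1.5-fold higher and 2, Icam1 and Icam2, were lower, against 3.80% and 7.26% of 15985 genes (medians -0.25 and -0.05). In macrophages 0 of the 7 counted were higher and 3, Icam1, Icam2 and Selp, were lower, against 6.98% and 5.56% of 13301 genes (medians -0.12 and 0.02). Icam1 was at 68.2 CPM in fibroblasts of the Cept1 overexpression library and 123 in the control library (log2 ratio -0.85, 95% interval -0.93 to -0.78), and at 183 and 304 in macrophages (-0.73, -0.81 to -0.65). In monocytes it was at 205 and 409 CPM (-0.997), although 1 control cell gave 111 of the 329 UMIs. Icam2 and Selp were scarce in these cells: in macrophages Icam2 had 5.85 against 18.3 CPM and Selp 3.79 against 8.02, found in under 5% of cells. The macrophage cluster with Arg1 and Spp1 alone held 39 of 85 Icam2 UMIs of the Cept1 overexpression library and 129 of 155 of the control library (log2 ratio -2.45). Its Selp UMIs were 26 of 55 in the Cept1 overexpression library and 53 of 68 in the control library (-1.75). In the cluster with Ccl2, Ccl3 and Cxcl2 the Selp ratio ran the other way, on 16 and 4 UMIs (1.34, -0.29 to 3.38).

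The Icam1 difference was examined within unsupervised clusters, since the classes hold several states. Of 9 fibroblast clusters with at least 50 gated cells in each library, Icam1 was lower in the Cept1 overexpression library in 8, by at least 1.5-fold in 5, and the log2 ratios ran from -1.41 to 0.15. The fibroblast cluster with the most Icam1, led by genes including Adamts4, Il6 and Gadd45b, had 233 CPM in the Cept1 overexpression library and 491 in the control library (-1.07). A second one, led by Has1, Ptx3, Tnfaip6 and Il6, had 76.5 against 157 (-1.04). The lowest ratio was in a cluster led by haemoglobin genes and Cfd (36.3 against 96.4). The one exception, led by Sult1e1, Cxcl14 and Col6a5, had 51.0 and 46.1 CPM (0.15, 95% interval -0.16 to 0.45). In the 3 macrophage clusters the values were 152 against 218 CPM in cells with Cd209f and Folr2, 200 against 357 in cells with Ccl2, Ccl3 and Cxcl2, and 226 against 428 in cells with Arg1 and Spp1. Vcam1 in the same fibroblast clusters was lower in 8 of 9 too, but past 1.5-fold in only 1, and overall it was 91.6 against 130 CPM (-0.50).

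**Figure D5:**
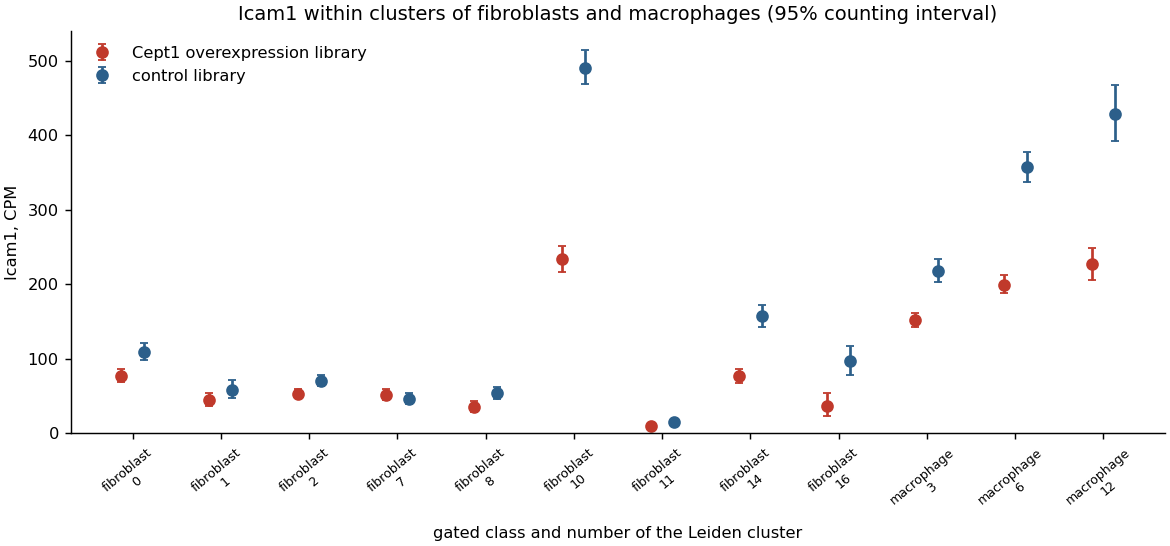
Icam1 in CPM in each cluster of gated fibroblasts and macrophages, Cept1 overexpression library left of the control library in each pair; bars are 95% exact Poisson intervals and numbers under the axis name the Leiden clusters. The 3 macrophage clusters and 8 of 9 fibroblast clusters are lower in the Cept1 overexpression library, with the widest gap in level in fibroblast cluster 10 (233 and 491).

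Among other leukocytes the direction was not the same. Neutrophils held 105 Icam1 UMIs in the Cept1 overexpression library and 12 in the control library, 213 and 44.7 CPM (log2 ratio 2.25, 95% interval 1.39 to 3.25), in 21 of 115 and 5 of 51 cells. These gated cells held 73452 and 45357 neutrophil marker UMIs, Cept1 overexpression library first. The mixed barcodes, left out of every class, held 29085 and 148273. A cluster led by Ngp, Camp and Ltf had 6 and 100 cells. The gated neutrophils may therefore be unlike subsets, and no split of them by state was made here. T cells held 49.7 and 31.4 CPM (0.67, 0.29 to 1.04) and B cells 23.7 and 25.8 (-0.12, -0.82 to 0.52). Selp in neutrophils had 19 UMIs in 12 cells of the Cept1 overexpression library and 1 UMI in the control library. Platelet marker UMIs were also more frequent in neutrophils of the Cept1 overexpression library (28 against 1), but none of the 12 cells with Selp held one. Of the 72 Selp UMIs in monocytes of the Cept1 overexpression library, 70 lay in 1 cell that also held 18 Sele UMIs, 6 Cdh5 UMIs and UMIs of 7 of the 8 endothelial markers. Vcam1 in mesothelial cells was 112 against 8.22 CPM (55 and 3 UMIs in 26 and 18 cells). It was 29.8 against 17.9 CPM in smooth muscle and 8.99 against 2.61 in T cells. Over the 10 classes counted for Vcam1, endothelial ones included, 5 were at least 1.5-fold higher with an interval above 0. In the other direction 0 were at least 1.5-fold lower with an interval below 0.

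A list of 10 immediate early genes, which tissue digestion is known to induce, was added after the members' values were seen and compared beside these results. Their summed level was 2308 and 1836 CPM in arterial cells, 3124 and 5030 in capillary, 7490 and 10775 in venous, 3968 and 1881 in lymphatic cells, 8431 and 9754 in fibroblasts and 22812 and 23288 in macrophages, Cept1 overexpression library first. The log2 ratios of all 10 were below 0 in capillary cells (median -0.60, Icam1 -1.38) and above 0 in lymphatic cells (median 0.96, Icam1 0.58). In venous cells 9 of 10 were below 0 and the median was lower still (-0.66), while Icam1 was at -0.29. In arterial cells 9 of 10 were above 0 (median 0.32), while Icam1 was at -0.24. In fibroblasts 9 of 10 were below 0 (median -0.21), with Icam1 at -0.85. In macrophages their median was -0.04 and Icam1 was at -0.73. In monocytes 7 of 10 were above 0 (median 0.26), while Icam1 was at -0.997. In neutrophils 8 of 10 were above 0 (median 0.36), with Icam1 at 2.25. The part of these genes in the Icam1 values was not tested.

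Partner genes were read from 6 lists. Of 20 counted genes of the endothelial junctions and the transmigration route, 0 passed 1.5-fold in pooled blood endothelium, nor did any of 18 linkers between adhesion receptors and actin, or of 10 genes that restrain activation, against 4.68% higher and 8.72% lower of all genes. The medians of these 3 lists were -0.02, -0.02 and -0.12. In the junction list the highest were Ocln, a tight junction protein (24.0 and 16.8 CPM, log2 ratio 0.52), and Alcam (27.4 and 19.8, 0.47), and the lowest Nectin2 (35.4 and 46.6, -0.40) and the tetraspanin Cd151 (152 and 198, -0.38). Nectin2 was 113 and 108 CPM in capillary cells, its highest subtype of blood endothelium (0.07), and 94.4 and 78.8 in venous cells (0.26). In arterial cells it was 7.40 and 4.78 CPM (0.63, -0.23 to 1.57), the 1 of 20 junction genes past 1.5-fold there. Among the linkers Ptk2b (0.39) and Vcl, which encodes vinculin (0.33), were highest and Rhog (-0.29) and Arhgef26 (-0.25) lowest. In the restraint list Cyld, a deubiquitinase that limits NF-κB signalling (0.32), and Klf4 (0.01) were highest, and Nr4a1 (-0.46) and Sirt1 (-0.39) lowest.

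The list on inducers of endothelial activation also holds genes that restrain NF-κB, among them Nfkbia and Tnfaip3. Its counts are therefore not counts of activators alone. Of its 24 genes, 0 were at least 1.5-fold higher and 2 were lower in pooled blood endothelium, against 4.68% and 8.72% of all genes. The median was -0.09. The 2 were Irf1, an interferon-response transcription factor, at 99.3 against 165 CPM (log2 ratio -0.74, 95% interval -0.86 to -0.61), and Nfkbia, the NF-κB inhibitor that NF-κB itself induces, at 282 against 427 (-0.60, -0.67 to -0.52). Irf1 was 81.0 against 130 CPM in arterial, 123 against 188 in capillary and 177 against 217 in venous cells. Nfkbia was 225 against 287, 311 against 485 and 649 against 726 CPM in the same order. Cx3cl1, which encodes the membrane chemokine fractalkine (0.55), and Ikbkg (0.25) were the highest of the list. In capillary cells, where Icam1 was lowest relative to the control library, 4 of 23 genes of this list were at least 1.5-fold lower. They were Relb, Nfkbia, Il1r1 and Irf1, against 8.27% of all genes. None was higher, against 7.68%, and the median was -0.21. Relb there was 15.4 against 37.9 CPM (-1.30, -2.02 to -0.61). In arterial cells 1 of 24 genes of the list, Nfkb2, was higher and 2, Tnfaip3 and Irf1, were lower. The shares of all genes were 5.58% and 6.32% (median of the list -0.09). In venous cells 2 of 22, Il4ra and Cx3cl1, were higher and 1, Tnfrsf1b, was lower, against 9.20% and 8.56% (median 0.14).

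For the selectin ligands and the enzymes that build them, 1 of 12 counted genes was higher in pooled blood endothelium and 2, Selplg and Chst2, were lower, against 4.68% and 8.72% of all genes, with a median of 0.02. Selplg had 15 and 27 UMIs there and Chst2 7 and 27. The higher one, Gcnt1, a glycosyltransferase that branches core glycans, stood at 239 and 151 CPM (log2 ratio 0.66), but at 325 and 264 in arterial cells (0.30). B4galt1 was next (0.44), and Podxl (-0.36) and St3gal6 (-0.34) were lowest of those with at least 100 UMIs. Of the leukocyte integrins 7 of 10 were counted in endothelium (median 0.05): Itga4 was higher and Itgal and Itgb7 lower, against the same 4.68% and 8.72%, all with few UMIs, and only Itga9 (0.11) and Itgb1 (0.05) reached 100 UMIs over both libraries.

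On the leukocytes themselves, the counter-receptors were present in both libraries. Selplg, the PSGL-1 scaffold that P-selectin binds, was at 702 and 634 CPM in neutrophils (log2 ratio 0.15), 427 and 391 in T cells (0.13) and 263 and 390 in monocytes (-0.57). Itgal, the LFA-1 alpha chain, was at 335 and 365 CPM in neutrophils (-0.13), 354 and 229 in monocytes (0.63) and 190 and 126 in T cells (0.59). Itgb2, the beta chain shared by LFA-1 and Mac-1, was at 158 and 96.5 CPM in T cells (0.71) and 166 and 167 in macrophages (-0.00). Itga4, the VLA-4 alpha chain, was at 376 and 207 CPM in T cells (0.86), 496 and 497 in B cells (-0.00) and 140 and 239 in neutrophils (-0.77). T cells were 2.57% of kept cells in the Cept1 overexpression library and 7.59% in the control library, and no split of T cells by state was made here.

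Across 15 classes in both libraries, a total of 30 points that share libraries and differ in depth, the genes whose log2 level followed each member best were found among 15482 genes. Icam2 and Pecam1 followed each other (Pearson's r 0.93), as did Sele and Selp (0.93), and both selectins were next matched by Vwf (0.90 and 0.90), a component of the same Weibel-Palade bodies and a venous marker of the gate. The third gene for Sele was Ackr4 (0.88). Vcam1 was followed by Calml4 (0.88), Cytl1 and Myrip (0.87 each), of which Cytl1 is an arterial marker of the gate. F11r was followed by Adgrf5, Cavin2 and Podxl (0.95, 0.95 and 0.94) and Jam2 by Flt1, Tmem255b and Apbb2 (0.88, 0.88 and 0.87). After each other, Icam2 was followed by She and Pkn3 (0.92 and 0.90) and Pecam1 by Myzap and Pkn3 (0.90 and 0.90). Jam3 was followed by Fermt2, Synm and Prickle2 (0.92, 0.91 and 0.90), and among the members its r was 0.56 with Jam2 and -0.39 with Icam1. Icam1 and Ackr1 had weaker matches, Vsir (0.79), Apaf1 (0.78) and Clic1 (0.76) for Icam1 and Cyp26b1 (0.75), Gm42679 (0.73) and Hdx (0.72) for Ackr1.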

How the data were processed

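The authors deposited unnormalized UMI counts for each gene and barcode. The file headers name Cell Ranger 7.2.0, and mm10 and Seurat are named in the submitters' processing notes. Whether introns and strand were used in counting is not stated in those sources. Antisense genes overlap Icam1, Vcam1, Selp and Jam3, and whether reads of those genes entered the counts was not examined. Gene positions were read from GENCODE for GRCm38, and promoters from RefSeq.

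A cell needed 500 or more genes and no more than 10% of its UMIs from mitochondrial genes. Doublets were scored in Scanpy 1.11.5 (Scrublet method). The automatic threshold called 533 cells in the Cept1 overexpression library and 0 in the control library, so the threshold of the Cept1 overexpression library (score 0.237) was applied to both and removed 533 and 183 cells.

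Each cell's class score was the sum over markers of ln(1 + UMIs per 10000 UMIs) divided by its 99.8% quantile. A class needed a score of 0.2, at least 3 markers with a UMI and 2 times the next score. Endothelial subtypes needed 1.5 times the next. Markers were listed first, and the scoring was set after the data were seen. Counts were summed per class and library. Levels have exact Poisson, ratios and shares exact Clopper-Pearson intervals (95%), counting error only. A count of 0 allows 3 counts. Genes with at least 20 UMIs in both libraries together were counted, and 1.5-fold was the threshold. The code was tested on simulated data with known changes.

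Members and lists were chosen with earlier results of these data known. The text names the 10 members, the 2 highest and 2 lowest genes of each list with at least 100 UMIs over both libraries, the 3 genes most like each member, and Cept1 and Cdh5. One gene that this rule names is not reported here. Genes past 1.5-fold in a list, genes leading a cluster, the leukocyte counter-receptors, immediate early genes and Cadm3 were named after their values were seen.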

Additional observations from a re-analysis of the deposited data

Results flagged for a closer look

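Members that were at least 1.5-fold higher in 1 class and at least 1.5-fold lower in another, with counting intervals on that side of 0, are listed here. With 1 library a group the differences between classes were not tested.

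Icam1 had a log2 ratio of the Cept1 overexpression over the control library of 2.25 in neutrophils and 0.67 in T cells, but of -0.73 in macrophages, -0.85 in fibroblasts, -0.997 in monocytes and -1.38 in capillary endothelial cells. The neutrophil value rests on 105 and 12 UMIs in gated cells. In the control library those cells held 45357 neutrophil marker UMIs, against 148273 in the mixed barcodes that were left out.

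Selp had a log2 ratio of 3.79 in monocytes, where 1 cell of the Cept1 overexpression library held 70 of 72 UMIs, and of 3.37 in neutrophils (19 UMIs and 1 UMI). It was -1.08 in macrophages and -2.32 in smooth muscle cells (3 and 19 UMIs, 13 of the control UMIs in 1 cell).

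Jam2 had a log2 ratio of 0.66 in smooth muscle cells (56 and 45 UMIs) and -1.04 in untyped endothelial cells, where 1 control cell held 82 of the 230 control UMIs.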

How the results depend on the processing

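In pooled blood endothelium 0 members were higher and 2 lower, with a median log2 ratio of -0.05. One member was higher under the stricter cell filter (at least 1000 genes, at most 5% mitochondrial UMIs), the looser one (200 genes, 20%), without cells with platelet marker UMIs, with subtypes weighted equally, without untyped cells and without the top cell of each member, and 2 were without the top 3 cells. The count lower was 1 under the stricter filter, with cells weighted equally, after thinning to 2000 UMIs, with subtypes weighted equally, without untyped cells, without the top 3 cells and at 2-fold. Without cells holding any leukocyte marker UMI the counts were 1 and 4 and the median -0.44, but this left out 80.1% and 83.8% of the cells. The markers used include Kit and Gata2, and which markers removed the cells was not examined. TMM scaling, doublets kept, Leiden clusters, adipocyte-marker cells left out, a minimum of 100 UMIs, mixed barcodes kept and shared barcodes left out gave 0 higher and 2 lower.

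The Sele ratio turned to 0.35 in arterial and 1.03 in venous cells without the top 3 cells, and to 0.19 in venous cells without shared barcodes. Over all members, subtypes and alternatives, 463 of 532 ratios kept their sign. The settings on top cells, untyped cells, shared barcodes, mixed barcodes and clusters were chosen after seeing the data. The cause of these shifts was not tested. No paired analysis was possible because each group held 1 library. Depth limits Ackr1, Sele and Jam3 most.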
